A study of Mus musculus with 4 samples.

Results

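The genes described here carry a Gpr name with a number, the name given to G protein-coupled receptors that were found by sequence before a ligand was known. They were taken by symbol from the annotation of the Affymetrix Mouse Genome 430.2 array, leaving out Gpr183, which gave 60 genes among 18193 named genes. Each is given by the brightest of its probe sets (by mean log2 signal), where a probe set is the group of short oligonucleotides that together measure one transcript. The arrays were hybridised with RNA from 4 subsets of dendritic cells (DCs) sorted from the spleens of Cx3cr1gfp/+ C57BL/6 mice, in which a green fluorescent protein gene stands in place of 1 copy of the chemokine receptor gene Cx3cr1. These were DCs sorted as CD8+CX3CR1+, as CD8+CX3CR1-, as CD4+ and as DN, where DN usually stands for cells with neither CD4 nor CD8. All came from CD11c-enriched cells with high CD11c, all had the same Cx3cr1gfp/+ genotype, and none was treated with BMP4. The sources used here give neither the age or number of the mice nor any pooling. A sort on reporter fluorescence separates cells by the activity of the Cx3cr1 promoter and not by a lineage marker.

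Each subset had 1 array, so neither standard deviations nor p-values can be given, and each difference describes a pair of arrays. Values are linear MAS5 signals. A floor of 55.4 was set from probe sets of olfactory, vomeronasal and taste receptors and of hair keratin-associated proteins. Signals under it were raised to it for differences, and where 1 of a pair of signals was under it the fold is a bound ("at least"). A gene was called when a pair of arrays differed by at least 4-fold. On the 4 arrays the sort genes followed the titles. Cd8a was 2530 in CD8+CX3CR1+ DCs and 4742 in CD8+CX3CR1- DCs, against 18.7 and 129.5 in CD4+ and DN DCs. Cx3cr1 was 893.7 in CD8+CX3CR1+ DCs, between 97.3 and 275.0 on the others, and Itgax, which encodes CD11c, was at least 3271 on all 4. One label field disagrees with the titles of the CD8+CX3CR1- and DN arrays, and the titles were used. The CD4+ array had the highest 3'/5' ratio of the Gapdh control probe sets, which rises as RNA integrity falls (11.8, against 7.56 to 8.98 on the others). For beta-actin the ratio was lower on every array, and again highest on the CD4+ array (2.86, against 1.79 to 2.32 on the others). In sorted populations, fewer cells that carry a transcript and less of it per cell cannot be told apart.

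G protein-coupled receptors span the membrane 7 times and, once bound by a ligand, make a heterotrimeric G protein exchange GDP for GTP. Its Gs and Gi classes then act on adenylyl cyclase and its Gq class on phospholipase C. Receptor kinases and arrestins end the signal, and RGS proteins speed the return of the G protein to its resting state. In DCs such receptors sense chemokines, lipids, nucleotides and acid. Several genes with a Gpr name encode multi-pass membrane proteins of the Golgi or the lysosome that are not classical receptors at the cell surface.

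Of the 60 genes, 36 passed the floor on 1 array or more, a share of 60%, against 69.5% of all named genes. On all 4 arrays 16 of them lay above it, or 26.7%, against 42.7% of all named genes. A further 3 lay above it on 3 arrays, 5 on 2 and 12 on 1. Genes above the floor on 1 array passed through the array where they were high, so their differences point to that array by construction. Counts of Gpr-named genes over the floor were 21 in CD8+CX3CR1+ DCs (35%), 20 in CD8+CX3CR1- DCs (33.3%), 24 in CD4+ DCs (40%) and 30 in DN DCs (50%). Over all named genes, the CD4+ array had the largest share above the floor (58.8%), with 52.9% in CD8+CX3CR1+ DCs, 52.1% in CD8+CX3CR1- DCs and 53.5% in DN DCs. The median of the highest signal over the arrays was 166.3 for the 36 genes above the floor, against 219.3 for all named genes above it. Only 7 of the 60 exceeded 500 on any array, and Gpr18 and Gpr4 exceeded 1000. These 7 were 19.4% of the 36 genes above the floor, beside 29.9% of all named genes above it. At the edge of the floor, Gpr158, Gpr143 and Gpr62 reached 56.8, 56.5 and 56.1 on their highest arrays, while Gpr179 reached 55.3 and was left out.

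**Figure D1:**
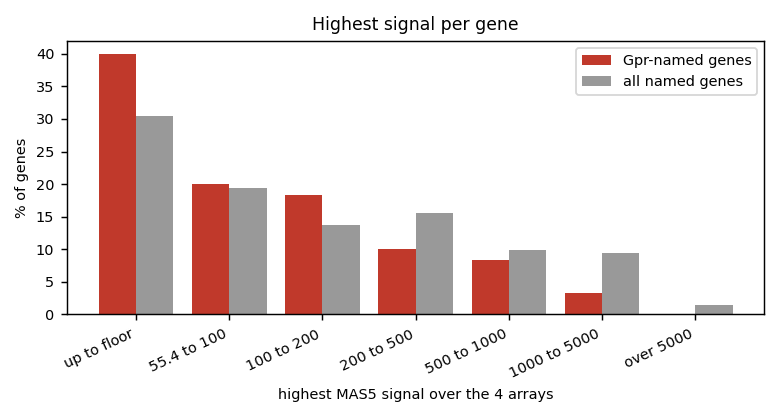
Share of the 60 Gpr-named genes (red) and of all 18193 named genes (grey), in percent, by the highest MAS5 signal over the 4 arrays. Of the Gpr-named genes 40% stayed at or under the floor of 55.4, and 2 reached more than 1000.

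The largest difference belonged to Gpr4, a receptor that is activated by extracellular protons and is best known from endothelium. Its signal was 56.6 in CD8+CX3CR1+ DCs, 1200.3 in CD8+CX3CR1- DCs, 330.1 in CD4+ DCs and 204.7 in DN DCs. The CD8+CX3CR1- array was thus the highest and the CD8+CX3CR1+ array the lowest, next to the floor. Gpr4 was 21.2-fold lower in CD8+CX3CR1+ DCs than in CD8+CX3CR1- DCs, 5.83-fold lower than in CD4+ DCs and 3.62-fold lower than in DN DCs. In CD8+CX3CR1- DCs it was 5.86-fold higher than in DN DCs and 3.64-fold higher than in CD4+ DCs. It has 1 probe set, so no other probe set bears on these values.

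Gpr65 and Gpr132, which also sense protons, were also lower in CD8+CX3CR1+ DCs than in CD8+CX3CR1- DCs. Gpr65, or TDAG8, which couples to Gs and raises cAMP in lymphocytes and macrophages, was 271.0 in CD8+CX3CR1+ DCs, 718.1 in CD8+CX3CR1- DCs, 326.9 in CD4+ DCs and 370.7 in DN DCs. It was 2.65-fold lower in CD8+CX3CR1+ DCs than in CD8+CX3CR1- DCs, which stood above the other 3. Between CD8+CX3CR1+ and CD4+ DCs Gpr65 differed by only 1.21-fold. With an equal median on all arrays that log2 difference went from -0.27 to 0.03, so the lowest array of Gpr65 is not resolved. Gpr132, which also responds to oxidised fatty acids, was 65.3 in CD8+CX3CR1+ DCs, 138.1 in CD8+CX3CR1- DCs, 155.9 in CD4+ DCs and 164.3 in DN DCs. Here the CD8+CX3CR1+ array alone stood apart, 2.11-fold to 2.52-fold lower than the others, which lay within 1.19-fold of each other. The second probe set of Gpr132 stayed under the floor on all 4 arrays.

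Among receptors for lipids and metabolites, Gpr18 was the brightest of all 60 genes. Gpr18, for which N-arachidonoyl glycine has been proposed as a ligand, was 3181 in CD8+CX3CR1+ DCs, 1048 in CD8+CX3CR1- DCs, 3101 in CD4+ DCs and 2475 in DN DCs. The CD8+CX3CR1- array was the low one, with a 3.04-fold higher signal in CD8+CX3CR1+ DCs, while the other 3 arrays lay close together. Gpr35, which responds to kynurenic acid and lysophosphatidic acid, was 561.1 in CD8+CX3CR1+ DCs, 433.4 in CD8+CX3CR1- DCs, 650.7 in CD4+ DCs and 630.7 in DN DCs. It was thus detected in all 4 subsets within a narrow range. Gpr171, for which the neuropeptide BigLEN was described as a ligand in mouse brain, was 168.9 in CD8+CX3CR1+ DCs, 426.6 in CD8+CX3CR1- DCs, 87.3 in CD4+ DCs and 178.1 in DN DCs. It was 4.89-fold higher in CD8+CX3CR1- DCs than in CD4+ DCs, and 2.53-fold lower in CD8+CX3CR1+ DCs than in CD8+CX3CR1- DCs.

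Gpr34, a receptor for lysophosphatidylserine, was 34.3 in CD8+CX3CR1+ DCs, under the floor, with 144.8 in CD8+CX3CR1- DCs, 115.6 in CD4+ DCs and 92.0 in DN DCs. It was at least 2.61-fold lower in CD8+CX3CR1+ DCs than in CD8+CX3CR1- DCs. Gpr31b, described in mouse gut as a receptor for lactate and pyruvate on CX3CR1+ phagocytes, was 43.2 in CD8+CX3CR1+ DCs, 195.9 in CD8+CX3CR1- DCs, 100.8 in CD4+ DCs and 30.9 in DN DCs. It was thus under the floor in CD8+CX3CR1+ and DN DCs, and at least 3.54-fold lower in CD8+CX3CR1+ DCs than in CD8+CX3CR1- DCs. With the floor taken per array, which is 45.9 for CD8+CX3CR1+, Gpr31b passed 4-fold in this pair and the genes called there were 4 in place of 3. The mouse has the related genes Gpr31a and Gpr31c, and a single probe set may not separate them. The other lipid or metabolite receptors of the list, Gpr17, Gpr63, Gpr84 and Gpr174, stayed under the floor on all 4 arrays. Gpr84 is a receptor for medium-chain fatty acids known from activated macrophages, and Gpr174 one for lysophosphatidylserine on lymphocytes.

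**Figure D2:**
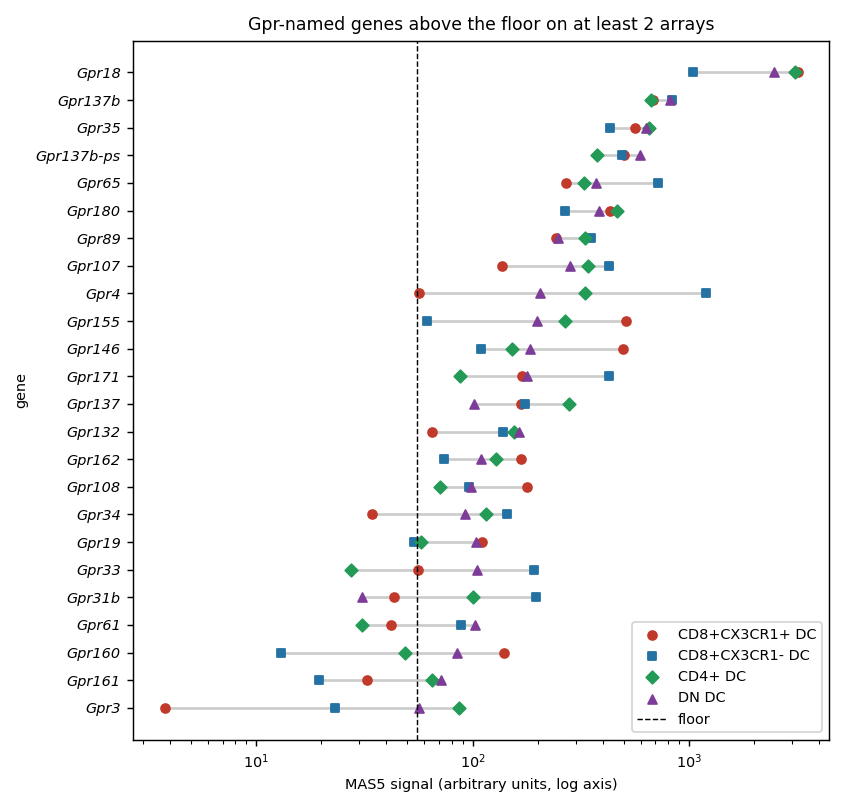
MAS5 signal (log axis) of the 24 Gpr-named genes above the floor on at least 2 arrays, 1 symbol per array, with the floor of 55.4 dashed and a grey line over the range. With signals under the floor raised to it, Gpr4 has the widest range, from 56.6 in CD8+CX3CR1+ DCs to 1200.3 in CD8+CX3CR1- DCs, while Gpr3 runs from 3.8 to 86.7, with 2 arrays under the floor, and Gpr137b and Gpr35 lie within narrow ranges.

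The genes for Golgi and lysosome proteins were mostly above the floor on all 4 arrays, as were 42.7% of all named genes. On at least 1 array 9 of 10 lay above it, beside 69.5% of all named genes. The 10 include both Gpr137b and its pseudogene Gpr137b-ps. Gpr155, a lysosomal cholesterol sensor that acts on mTORC1, was 513.0 in CD8+CX3CR1+ DCs, 61.4 in CD8+CX3CR1- DCs, 267.5 in CD4+ DCs and 199.6 in DN DCs. It was highest in CD8+CX3CR1+ DCs and near the floor in CD8+CX3CR1- DCs. It was 8.36-fold higher in CD8+CX3CR1+ DCs than in CD8+CX3CR1- DCs, and 4.36-fold lower in CD8+CX3CR1- DCs than in CD4+ DCs. The value of 61.4 lay under the background of its own array, 62.4, and with 62.4 in its place the log2 differences were 3.04 between CD8+CX3CR1+ and CD8+CX3CR1- DCs and -2.10 between CD8+CX3CR1- and CD4+ DCs.

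Gpr107, a Golgi protein of the retrieval pathway, was 136.7 in CD8+CX3CR1+ DCs, 428.7 in CD8+CX3CR1- DCs, 342.6 in CD4+ DCs and 283.4 in DN DCs. This gave a 3.14-fold lower signal in CD8+CX3CR1+ DCs than in CD8+CX3CR1- DCs, but the probe sets of Gpr107 disagreed. Its next brightest probe set was 298.3 in CD8+CX3CR1+ DCs, 259.1 in CD8+CX3CR1- DCs, 320.3 in CD4+ DCs and 177.6 in DN DCs. Over the 4 probe sets above the floor on any array, the log2 difference between CD8+CX3CR1+ and CD8+CX3CR1- DCs ran from -1.65 to 0.33. Gpr107 therefore has no settled direction between these arrays. Between CD8+CX3CR1+ and DN DCs these 4 probe sets ran from -1.05 to 0.75. Its remaining probe set was under the floor on all 4 arrays, with 40.7 in CD8+CX3CR1+ DCs and 7.8 in DN DCs. Averaged with that one the difference was 0.44, a figure that rests in part on signals under the floor.

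Gpr137b, a lysosomal protein of the Rag GTPase pathway, was 684.3 in CD8+CX3CR1+ DCs, 838.9 in CD8+CX3CR1- DCs, 667.5 in CD4+ DCs and 817.8 in DN DCs, a range of 1.26-fold. The probe set named for its pseudogene Gpr137b-ps lay between 375.6 and 592.6, and 4 other probe sets carry both names, so the share of each cannot be told apart. Those 4 were all lower in CD8+CX3CR1+ DCs than in CD8+CX3CR1- DCs, by log2 differences of -1.01 to -0.29. The widest of them was 211.4 in CD8+CX3CR1+ DCs against 426.4 in CD8+CX3CR1- DCs. Gpr89, the Golgi pH regulator, lay between 242.5 and 351.6, and Gpr180, a multi-pass protein first linked to intimal thickening of vessels, between 268.5 and 465.4. Gpr137 was 167.0 in CD8+CX3CR1+ DCs, 175.1 in CD8+CX3CR1- DCs, 278.1 in CD4+ DCs and 101.4 in DN DCs. It was 2.74-fold higher in CD4+ DCs than in DN DCs. Gpr108, the Golgi paralogue of Gpr107, was 178.1 in CD8+CX3CR1+ DCs and lay between 70.7 and 98.3 on the other 3. Gpr143, a protein of melanosomes, passed the floor in DN DCs alone (56.5), and Gpr137c on none.

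**Figure D3:**
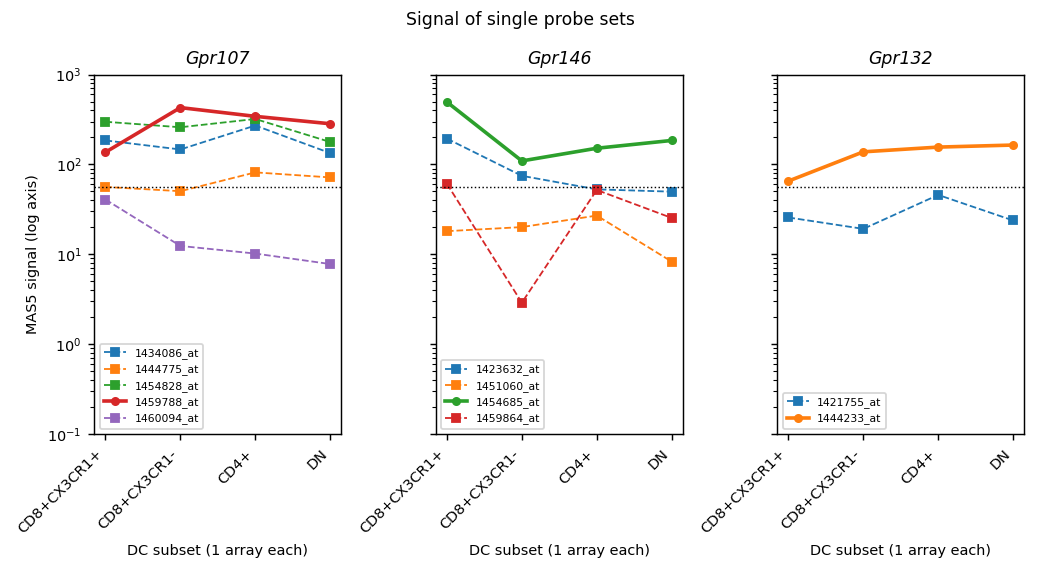
MAS5 signal (log axis) of every probe set named for Gpr107, Gpr146 and Gpr132 on each array, with the probe set used drawn solid and the floor dotted. The probe set used for Gpr107 is lowest in CD8+CX3CR1+ DCs (136.7), whereas the next brightest is 298.3 there, and the 2 brightest probe sets of Gpr146 both peak in CD8+CX3CR1+ DCs.

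Of the 30 genes that stand in none of the groups by role, 15 lay above the floor. Gpr146, an orphan receptor that affects plasma cholesterol through the liver in mice, was 494.7 in CD8+CX3CR1+ DCs, 109.4 in CD8+CX3CR1- DCs, 151.4 in CD4+ DCs and 184.8 in DN DCs. It was highest in CD8+CX3CR1+ DCs, 4.52-fold above CD8+CX3CR1- DCs, 3.27-fold above CD4+ DCs and 2.68-fold above DN DCs. Its second probe set was 193.6 in CD8+CX3CR1+ DCs and between 49.8 and 74.7 on the others, which gives the same order for the highest array. The log2 difference between CD8+CX3CR1+ and CD8+CX3CR1- DCs was 2.18 at the brightest probe set. Over the 3 probe sets that passed the floor on any array it ran upward from at least 0.14, a bound from 60.9 against 2.9. Averaged over all its probe sets, 1 of them under the floor on all 4 arrays, it was at least 0.87. That is also a bound, because the averaged CD8+CX3CR1- signal was under the floor and was raised to it.

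Gpr160, an orphan receptor, was 139.4 in CD8+CX3CR1+ DCs and 85.1 in DN DCs, with values under the floor in CD8+CX3CR1- DCs (13.1) and CD4+ DCs (48.9). It was at least 2.52-fold higher in CD8+CX3CR1+ DCs than in CD8+CX3CR1- DCs. Gpr162, an orphan receptor of the brain, was 168.3 in CD8+CX3CR1+ DCs, 73.8 in CD8+CX3CR1- DCs, 128.6 in CD4+ DCs and 109.7 in DN DCs. Gpr33, a receptor of the chemoattractant family that is a pseudogene in most humans, was 55.8 in CD8+CX3CR1+ DCs, 191.8 in CD8+CX3CR1- DCs, 27.4 in CD4+ DCs and 105.0 in DN DCs. It was 3.44-fold lower in CD8+CX3CR1+ DCs than in CD8+CX3CR1- DCs, at a value next to the floor. Gpr83, known from regulatory T cells in mice, passed the floor in CD4+ DCs alone (182.8, against at most 46.1 on the others), and Gpr37l1 passed it in DN DCs alone (117.5). Receptors of lymphocyte homing were low. Gpr15 had at most 38.7, and Gpr25 reached 70.7 in DN DCs. Of the receptors that signal to Gs without a known need for ligand, Gpr6 was under the floor on all 4 arrays, and Gpr3 had 86.7 in CD4+ DCs and 56.4 in DN DCs. The probe set used for Gpr12 was under the floor as well, but its other probe sets reached 71.4 and 61.7 in CD4+ DCs.

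Between CD8+CX3CR1+ and CD8+CX3CR1- DCs, 3 of the 36 genes above the floor were called, or 8.33%, beside 2.82% of all 12653 named genes above the floor. Higher were 2 of them, Gpr155 and Gpr146, beside 1.67% of all genes, and 1 was lower, Gpr4, beside 1.15%. At 2-fold, 6 were higher and 8 lower, beside 7.71% and 5.82% of all genes. The higher ones were Gpr18, Gpr155, Gpr146, Gpr162, Gpr19 and Gpr160, and, each by its brightest probe set, the lower ones Gpr65, Gpr107, Gpr4, Gpr171, Gpr132, Gpr34, Gpr33 and Gpr31b. These 14 were 38.9% of the 36, beside 13.5% of all named genes above the floor, and in 4 of the 14 the lower signal was under the floor. Without Gpr107, whose probe sets disagree, 7 were lower and 13 of 35 differed (37.1%). In this pair 12 of the 36 were under the floor on both arrays, which sets their difference to 0. The median log2 difference was 0 for the 36 genes, where it falls among these 12, and 0 for all genes above the floor. The median of its size without sign was 0.61 for the 36 genes and 0.32 for all genes. The Gpr-named genes were dimmer than the rest by the medians above, and the part of signal level in these shares was not tested. Among genes with several probe sets, the SD of the log2 difference between probe sets had a root mean square of 0.46 in this pair, a figure that leaves out variation between animals and between sorts.

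**Figure D4:**
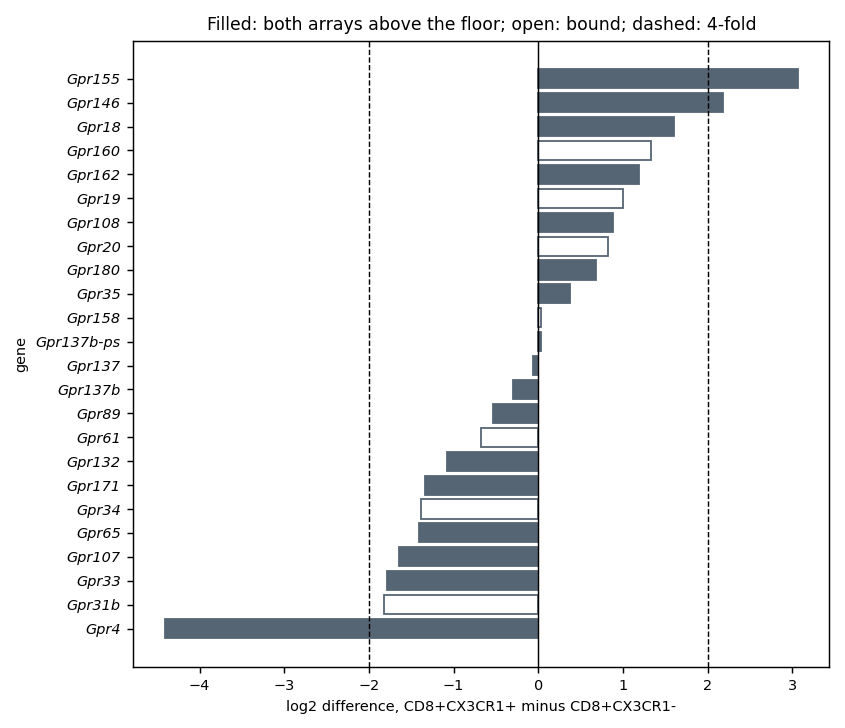
Log2 difference between CD8+CX3CR1+ and CD8+CX3CR1- DCs for the 24 Gpr-named genes above the floor on at least 1 of these arrays, with filled bars where both arrays were above it and open bars for bounds. Each gene is drawn by its brightest probe set. Gpr155 and Gpr146 pass 4-fold on the higher side and Gpr4 on the lower side, at -4.41.

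The remaining 5 pairs share arrays with this one and with each other, so their values are not independent. Between CD8+CX3CR1+ and CD4+ DCs, 1 of the 36 was called, Gpr4 as lower, beside 0.775% of all genes. At 2-fold, 8 differed (22.2%, beside 9.4%), with Gpr146, Gpr108 and Gpr160 higher and Gpr107, Gpr4, Gpr132, Gpr34 and Gpr83 lower in CD8+CX3CR1+ DCs. Between CD8+CX3CR1+ and DN DCs 0 were called, beside 0.411% of all genes, and 6 differed by 2-fold (16.7%, beside 5.91%). Gpr155 and Gpr146 were the higher ones, and Gpr107, Gpr4, Gpr132 and Gpr37l1 the lower ones. Without Gpr107, whose probe sets disagree in direction here, 5 of 35 differed in this pair (14.3%). In the pair of CD8+CX3CR1+ and CD4+ DCs its 4 probe sets above the floor on any array were all lower in CD8+CX3CR1+ DCs. Their log2 differences were -1.33 to -0.10. The average, which takes in the probe set under the floor, was -0.10, and 7 of 35 differed without Gpr107.

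Between CD8+CX3CR1- and CD4+ DCs, 2 were called, Gpr171 as higher and Gpr155 as lower, or 5.56%, beside 2.98% of all genes. At 2-fold 7 differed, or 19.4%, near the 15.9% of all genes. Between CD8+CX3CR1- and DN DCs, 1 was called, Gpr4 as higher, beside 2.02% of all genes, and 6 differed by 2-fold (16.7%, beside 11%). Gpr4, Gpr171 and Gpr31b were the higher ones in CD8+CX3CR1- DCs, and Gpr18, Gpr155 and Gpr37l1 the lower ones. Between CD4+ and DN DCs 0 were called, beside 0.253% of all genes, and 4 differed by 2-fold (11.1%, beside 7.6%). These were Gpr137 and Gpr83 as higher and Gpr171 and Gpr37l1 as lower in CD4+ DCs. The differences nearest to the threshold were those of Gpr155 just inside it (4.36-fold) and of Gpr4 just outside it (3.64-fold), both between CD8+CX3CR1- and CD4+ DCs.

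Some of these genes lie next to other receptor genes of the same families. In the RefSeq gene table, Gpr171 lies next to P2ry14 on chromosome 3 and near P2ry13 and P2ry12, all genes of nucleotide receptors. P2ry14, a receptor for UDP-sugars, was 145.2 in CD8+CX3CR1+ DCs, 2327 in CD8+CX3CR1- DCs, 28 in CD4+ DCs and 390.4 in DN DCs. It shares with Gpr171 the highest array (CD8+CX3CR1-) and the lowest (CD4+). The order of the DN and CD8+CX3CR1+ arrays between them is not resolved for Gpr171, where they differed by 1.05-fold. P2ry13, a receptor for ADP, went the other way, with 207.6 in CD8+CX3CR1+ DCs, 7.5 in CD8+CX3CR1- DCs, 294.8 in CD4+ DCs and 103.8 in DN DCs. Genes of this cluster were thus highest on different arrays. Gpr18 lies next to Gpr183, the receptor for oxysterols, on chromosome 14. Gpr183 was 2690 in CD8+CX3CR1+ DCs, 117.8 in CD8+CX3CR1- DCs, 1234 in CD4+ DCs and 1190.2 in DN DCs, and it shares with Gpr18 the lowest array. Gpr183 was 2.18-fold higher in CD8+CX3CR1+ DCs than in CD4+ DCs, whereas Gpr18 differed by only 1.03-fold there, so its highest array is not resolved.

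**Figure D5:**
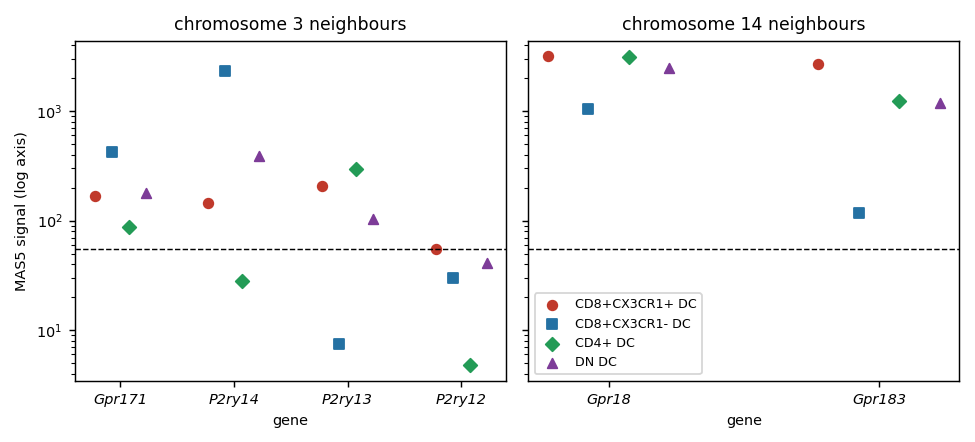
MAS5 signal (log axis) of Gpr171 and its chromosome 3 neighbours P2ry14, P2ry13 and P2ry12, and of Gpr18 and its chromosome 14 neighbour Gpr183, on the 4 arrays, with the floor of 55.4 dashed. Gpr171 and P2ry14 are highest in CD8+CX3CR1- DCs and lowest in CD4+ DCs, while P2ry13 is lowest in CD8+CX3CR1- DCs (7.5) and Gpr18 and Gpr183 are lowest there too.

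Promoter sequence is shown for a pair of genes that were highest in CD8+CX3CR1- DCs (Gpr4 and Gpr65) and a pair that were lowest there (Gpr18 and Gpr155). Each line gives the 250 bases before the gene's start on the gene's strand, from RefSeq on GRCm38.p6, with matches to the first 4 motifs below in capitals. The positions are chr7:19212288-19212537 (plus strand) for Gpr4, chr12:98268385-98268634 (plus) for Gpr65, chr14:121915889-121916138 (minus) for Gpr18 and chr2:73386481-73386730 (minus) for Gpr155.
Gpr4: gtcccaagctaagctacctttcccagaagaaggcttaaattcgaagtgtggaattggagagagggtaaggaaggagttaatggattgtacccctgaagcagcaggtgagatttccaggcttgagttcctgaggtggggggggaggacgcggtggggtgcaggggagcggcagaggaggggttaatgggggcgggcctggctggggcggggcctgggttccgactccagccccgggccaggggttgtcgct
Gpr65: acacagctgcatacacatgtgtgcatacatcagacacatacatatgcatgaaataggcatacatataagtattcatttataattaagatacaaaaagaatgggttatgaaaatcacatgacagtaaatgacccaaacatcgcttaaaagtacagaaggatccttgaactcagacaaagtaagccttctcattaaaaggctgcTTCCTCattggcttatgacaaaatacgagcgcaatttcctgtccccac
Gpr18: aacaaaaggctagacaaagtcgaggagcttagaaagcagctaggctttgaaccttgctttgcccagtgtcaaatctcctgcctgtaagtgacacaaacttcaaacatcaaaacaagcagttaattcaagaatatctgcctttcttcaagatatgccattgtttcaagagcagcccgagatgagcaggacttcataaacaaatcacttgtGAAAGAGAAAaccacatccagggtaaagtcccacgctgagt
Gpr155: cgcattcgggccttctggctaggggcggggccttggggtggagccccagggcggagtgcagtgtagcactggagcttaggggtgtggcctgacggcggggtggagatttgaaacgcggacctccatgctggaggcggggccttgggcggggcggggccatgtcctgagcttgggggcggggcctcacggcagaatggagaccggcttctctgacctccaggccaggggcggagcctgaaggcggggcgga
The motifs searched on both strands were GAGGAA, the core preferred by the Ets factor PU.1, GGAA and GAAA with 2 bases between them, the Ets-IRF composite element, GAAA and GAAA with 2 bases between them, the core of the interferon response element, TGANTCA, the AP-1 site, and CANNTG, the E-box, which is too frequent to be marked. The Ets-IRF and interferon elements differ in their second letter and cannot match the same bases on the same strand. The Gpr65 window holds GAGGAA on the opposite strand at position -48 from the start, and the Gpr18 window holds the interferon response element at -41. The E-box, which can share bases with the others, has 1 match in the Gpr4 window, 5 in Gpr65 and 1 in Gpr18. The Gpr4 window holds no other of these motifs and the Gpr155 window none, and Gpr155 has a G and C content of 70.4%, against 36.8% for Gpr65, 42.4% for Gpr18 and 61.2% for Gpr4. Promoter windows were at hand for 27 of the 36 genes above the floor, as 38 windows of 300 bases that run to 50 bases after the start. GAGGAA stands in 13 of these, beside 28.3% of all 32851 such windows. The interferon response element stands in 2 (all windows 3.44%), the Ets-IRF element in 1 (2.72%) TGANTCA in 3 (7.81%) and CANNTG in 30 (72.3%). A match describes the letters only.

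The partners of these receptors were described from a list of 54 genes for G protein subunits, RGS proteins, receptor kinases and arrestins, 41 of them above the floor. Between CD8+CX3CR1+ and CD8+CX3CR1- DCs 1 was called as higher, beside 1.67% of all genes, and 1 as lower, beside 1.15%. Rgs12 was 939.9 in CD8+CX3CR1+ DCs, 213.1 in CD8+CX3CR1- DCs, 983.8 in CD4+ DCs and 666.5 in DN DCs. Rgs10, which acts on Gi proteins, was 801.7 in CD8+CX3CR1+ DCs, 3246 in CD8+CX3CR1- DCs, 2216 in CD4+ DCs and 1216 in DN DCs. Next in size were Gng2, a G protein gamma subunit (87.6 in CD8+CX3CR1+ DCs against 283.5 in CD8+CX3CR1- DCs), and the arrestin gene Arrb1 (109.2 against 349.3 on the same arrays). The other arrestin gene, Arrb2, lay between 663.5 and 1181 on the 4 arrays.

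Between CD8+CX3CR1+ and CD4+ DCs 1 of the 41 was called (all genes 0.775%), Rgs1, which was 625.3 in CD8+CX3CR1+ DCs against 2641 in CD4+ DCs. The next were Rgs10, Grk6 (2482 in CD8+CX3CR1+ DCs against 1008 in CD4+ DCs) and Gngt2 (168.5 against 388.8). Gngt2, a gamma subunit, was under the floor in CD8+CX3CR1- DCs. It was at least 7.02-fold lower there than in CD4+ DCs and at least 4.08-fold lower than in DN DCs, and Rgs12 was also called as lower than in CD4+ DCs. These were 2 of 41 in the pair with CD4+ DCs, beside 2.98% of all genes, and 1 of 41 in the pair with DN DCs, beside 2.02%. No gene of the list was called (0 of 41) between CD8+CX3CR1+ and DN DCs or between CD4+ and DN DCs, beside 0.411% and 0.253% of all genes. Between CD8+CX3CR1- and DN DCs Rgs18 followed, with 196.3 in CD8+CX3CR1- DCs against 709.9 in DN DCs. The alpha subunits differed in level. Gnas, the Gs alpha subunit, lay between 4005 and 5026, Gnai2, a Gi alpha subunit, between 1738 and 2026, and Gna13 between 1102 and 1804. Of the Gq class, Gnaq lay between 608.1 and 853.7 and Gna11 was at least 139.0 on every array, Gna15 was above the floor in CD8+CX3CR1+ DCs (56.6) and CD8+CX3CR1- DCs (111.9), and Gna14 was under it on all 4 arrays. Gnai1, another Gi subunit, was also under it on all 4. The median log2 difference of the list in the 6 pairs lay between -0.26 and 0.24.

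Markers of DC subsets and of other cells also differed between the arrays. The summed signal of 7 CD8 DC markers was 8993 in CD8+CX3CR1+ DCs, 32461 in CD8+CX3CR1- DCs, 10111 in CD4+ DCs and 14323 in DN DCs. Irf8 and Wdfy4 made up most of each sum. Of these markers, Xcr1 was 22.9 in CD8+CX3CR1+ DCs against 518.7 in CD8+CX3CR1- DCs. All but Batf3 were highest in CD8+CX3CR1- DCs, and Batf3 was highest in CD4+ DCs (2677.7, against 2569.8 in CD8+CX3CR1- DCs). The 5 markers of CD4 and CD11b DCs went the other way, with sums of 2785 in CD8+CX3CR1+ DCs, 207.4 in CD8+CX3CR1- DCs, 2555 in CD4+ DCs and 2392 in DN DCs. Among them Irf4 was 880.0 in CD8+CX3CR1+ DCs against 3.5 in CD8+CX3CR1- DCs, Cd209a 995.7 against 2.4 and Sirpa 731.1 against 64.1. The other markers did not follow. Esam was 166.7 against 134.8 on these arrays, with 582.4 in CD4+ DCs and 464 in DN DCs, and Itgam was above the floor in DN DCs alone (65.1). The sum of 8 plasmacytoid DC markers was 5096 in CD8+CX3CR1+ DCs and between 1061 and 1868 on the others. Tcf4 made up most of the CD8+CX3CR1+ sum (3489). Siglech, Bst2, Ccr9 and Klk1 were also highest in CD8+CX3CR1+ DCs, and Ly6d was under the floor on all 4 arrays. Cox6a2 and Pacsin1 were highest in CD4+ DCs (161.1 and 86, against 91.3 and 18.5 in CD8+CX3CR1+ DCs).

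The 6 monocyte markers summed to 12419 in CD8+CX3CR1+ DCs, 2940 in CD8+CX3CR1- DCs, 14759 in CD4+ DCs and 10330 in DN DCs. Csf1r, the receptor for the macrophage growth factor CSF1, made up most of this, with 11291 in CD8+CX3CR1+ DCs against 498.3 in CD8+CX3CR1- DCs. Without Csf1r the sums were 1128 in CD8+CX3CR1+ DCs, 2441 in CD8+CX3CR1- DCs, 864.7 in CD4+ DCs and 1188 in DN DCs, so the CD8+CX3CR1- array became the highest. Treml4 made up most of that CD8+CX3CR1- sum, with 2123.9 there against 196.1 in CD8+CX3CR1+ DCs, 398.9 in CD4+ DCs and 456.2 in DN DCs. No other gene of this list was highest in CD8+CX3CR1- DCs. The 10 macrophage markers summed to 2323 in CD8+CX3CR1+ DCs, 960.5 in CD8+CX3CR1- DCs, 4226 in CD4+ DCs and 2131 in DN DCs, with 7, 5, 7 and 5 above the floor, and Marco was under it on all 4. Without Adgre1, which was 3068 in CD4+ DCs, the sums were 1745 in CD8+CX3CR1+ DCs, 817.4 in CD8+CX3CR1- DCs, 1158 in CD4+ DCs and 438.2 in DN DCs, and the CD8+CX3CR1+ array became the highest.

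Of 7 B cell markers between 3 and 4 were above the floor on each array, with sums of 601.8 to 1134. The antigen receptor chain gene Cd79a was under it on all 4, while its partner Cd79b was 593.0 in CD8+CX3CR1+ DCs, 3.1 in CD8+CX3CR1- DCs, 401.8 in CD4+ DCs and 178.0 in DN DCs, and Ms4a1 lay between 162.5 and 445.8. Of 5 T cell markers between 1 and 3 were above the floor, with sums of 111.1 to 199.8, and Cd3g was under it on all 4. Of 5 NK cell genes 4 were above the floor in CD8+CX3CR1+ DCs, 1 in CD8+CX3CR1- DCs, 2 in CD4+ DCs and 3 in DN DCs, with sums of 243.3 to 565.2. Ncr1 was under it on all 4, while Klrk1 lay between 76.5 and 340.0. The 6 neutrophil markers summed to between 215.8 and 551.9, with 1 to 3 above the floor. The part of any of these cells in the receptor values was not tested.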

How the data were processed

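Biotin-labelled total RNA of each subset was hybridised to 1 array. The deposited intensity of a probe set is a MAS5 signal, per the submitters' processing notes, which name no version. Its mean, trimmed by 2% at either end, was 150.0 for every array, so each array had been scaled as a whole. Of 45101 probe sets, 34945 had 1 gene symbol in the platform annotation, and those with several (932) were not named. All 60 symbols stand in the RefSeq gene table of GRCm38.p6. They had 91 probe sets, and 20 genes had more than 1. The floor was the 90th percentile, pooled over arrays, of 129 background probe sets; taken per array it would be 45.9 for CD8+CX3CR1+, 62.4 for CD8+CX3CR1-, 58.7 for CD4+ and 52.7 for DN. No further scaling was applied. A single array per group allows no test, and this number limits the precision. The calling step was run on simulated data, with changes far past 4-fold in genes well above the floor. That run checks the code and does not bear on how reliable the calls made here are. Genes named are those called in any of 6 pairs, the 10 brightest, those above the floor in the groups by role, and those near a threshold. Gpr33, Gpr83, Gpr160, Gpr162, the other genes outside the groups and the neighbours were chosen after their values were seen. The members and lists were chosen with earlier results of these data known. Python 3.11.15, pandas 2.3.3 and numpy 2.4.6 were used.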

Additional observations from a re-analysis of the deposited data

How the results depend on the processing

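The number of Gpr-named genes at least 4-fold apart rested on the floor. Without one, when dim signals enter as they are, it was 17 between the CD8+CX3CR1+ and CD8+CX3CR1- arrays, 13 between CD8+CX3CR1+ and CD4+, 14 between CD8+CX3CR1+ and DN, 16 between CD8+CX3CR1- and CD4+, 15 between CD8+CX3CR1- and DN and 18 between CD4+ and DN, in place of 3, 1, 0, 2, 1 and 0. At 2-fold the counts were 14, 8, 6, 7, 6 and 4 in the same order. With the floor at the 75th percentile they were 5 between CD8+CX3CR1+ and CD8+CX3CR1- (with Gpr31b and Gpr34), 4 between CD8+CX3CR1- and CD4+ (with Gpr33 and Gpr83), 2 between CD8+CX3CR1- and DN (with Gpr31b) and 1 between CD4+ and DN (Gpr83). At the 95th percentile Gpr155 dropped out between CD8+CX3CR1- and CD4+, which left 1. An equal median on all arrays gave 2 between CD8+CX3CR1+ and CD4+ (with Gpr146), and it exchanged Gpr155 for Gpr4 between CD8+CX3CR1- and CD4+. That scaling moved the median log2 difference of all genes, without a floor, by 0.30 in the first of these pairs and 0.33 in the second. Under 8 alternatives to the scaling, floor and probe set, Gpr4 passed 4-fold in all 8 in its 3 pairs, with log2 differences of -4.43 to -4.05 between CD8+CX3CR1+ and CD8+CX3CR1-, as did Gpr155 in that pair (2.83 to 3.06) and Gpr171 between CD8+CX3CR1- and CD4+. Each of these genes has a single probe set, so the settings for probe sets could not change it. A floor under both signals of a pair could not change their difference either. Most of the 8 settings therefore left Gpr4 as it was, at -4.41 in the first pair, and are no check on it. Gpr146 passed in 7 of the 8 and was at least 0.87 with probe sets averaged, where the lower signal was under the floor. The number of genes above the floor was 27 to 52. A floor per array gave 4 between CD8+CX3CR1+ and CD8+CX3CR1- (with Gpr31b) and the same counts in the other pairs. For the alternative floors and scalings, and without a floor, no share of all named genes is given. These counts therefore show how the calls depend on the setting, and not whether Gpr-named genes exceed the rest. Leaving out Gpr107, chosen after seeing the data, gave 2-fold counts of 13, 7, 5, 7, 6 and 4. Taking the floor and probe sets from the 3 arrays other than CD4+, an alternative chosen after seeing the data, left the counts at 3, 0 and 1 in the pairs without that array. No paired analysis was possible because each subset has 1 array. Most of the 60 genes lay near or under the background, and there the array resolves no differences.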
